A study of Homo sapiens with 6 samples.

Results

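Transcripts of 10 negative regulators of mitogen-activated protein kinase (MAPK) signalling were examined in SK-MES-1 cells, a human line from a squamous carcinoma of the lung, after transient knockdown of the keratin gene KRT6A. The genes were taken by name from the 58735 genes of the deposited table: the MAPK phosphatases DUSP1, DUSP4, DUSP5, DUSP6, DUSP7 and DUSP10, the Sprouty genes SPRY2 and SPRY4, and the related SPRED1 and SPRED2. Of these 10 genes, 10 were in the table and 10 passed the filter on low values. The labels name 3 groups of 2 RNA sequencing libraries, the knockdown groups si1 and si2 and the control group NC. What these names stand for is not spelled out in the labels, which also give no sequence of the knockdown reagents and no dose, time or further treatment of the cells. Nothing in them says that the 2 libraries of a group came from separate cultures, so the p-values measure the spread between these libraries, which may be technical.

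Levels are FPKM, fragments scaled by gene length and by sequencing depth, so that genes can be compared within a library. The libraries held 14948607 to 17401392 reads, and each of the 10 genes had 183 to 2935 reads in each library. KRT6A itself had 0 reads in all 6 libraries, which allows up to 0.0605 to 0.0627 FPKM in si1, 0.0649 to 0.0678 FPKM in si2 and 0.0583 to 0.0613 FPKM in NC. The libraries' labels could therefore not be checked from the targeted gene. The squamous markers KRT6A and DSG3 were at 0 in every library and KRT5 and KRT14 were at or near 0, while the simple keratins KRT7, KRT8, KRT18 and KRT19 summed to 365.3 to 370.9 FPKM in si1, 258.8 to 271.7 FPKM in si2 and 351.0 to 374.9 FPKM in NC. The squamous list of 6 genes summed to 5.578 to 6.001 FPKM in si1, 11.7 to 13.9 FPKM in si2 and 6.02 to 6.69 FPKM in NC, and 1 of its genes, TP63, passed the filter. The part of these marker levels in the results was not tested. CD3E and CDH5, which mark T cells and endothelium, were at 0 in all libraries, but some other leukocyte and endothelial markers were detected. The leukocyte marker CD14 was at 0.698 to 1.654 FPKM and passed the filter. The leukocyte marker PTPRC (0.0392 to 0.1224 FPKM) and the endothelial markers PECAM1 (0.1234 to 0.2208 FPKM) and VWF (0.0609 to 0.2356 FPKM) did not. Of the fibroblast and mesothelial markers, COL1A1 was at 15.21 to 22.54 FPKM, but the rest of that list was low. PDGFRB was at 1.197 to 1.894 FPKM and LUM at 0.549 to 1.326 FPKM. COL3A1 was at 0 to 0.0389 FPKM, MSLN at 0 to 0.089 FPKM, and WT1 at 0 in every library. The epithelial markers EPCAM and CDH1 were at 3.563 to 5.331 and 0.0388 to 0.2562 FPKM, and CLDN4 and CLDN7 at 7.343 to 17.1 and 0.0229 to 0.1921 FPKM. Both tested genes of this list differed from NC in si1 and si2, in opposite directions. EPCAM was lowest in NC (3.563 and 3.978 FPKM) and CLDN4 highest there (13.73 and 17.1 FPKM). In bulk RNA, fewer cells of a type and less RNA per cell cannot be told apart.

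The ERK pathway carries signals from growth factor receptors through RAS, RAF and MEK to the kinase ERK, and it switches on genes that restrain it. Dual-specificity MAPK phosphatases remove the activating phosphates from ERK, JNK or p38, some in the nucleus and others in the cytoplasm. Sprouty and SPRED proteins act further up, between the receptor and RAF, and transcripts of several of these genes are widely used as readouts of ERK activity in tumour cells.

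The plainest pattern was a set of low levels in si1. In si1 against NC, 8 of the 10 genes fell and no log2 fold change was above 0. Over all 12319 genes tested, 22.4% changed in this comparison, 12.9% lower and 9.47% higher in si1. In si2 against NC, DUSP4, DUSP5, DUSP6 and SPRED1 rose and SPRY4 fell, that is 4 genes higher and 1 lower, against 13.6% of all genes higher, 15.4% lower and 29.0% in either direction. In si1 against si2, 9 of 10 genes were lower in si1, against 19.9% of all genes lower, 18.6% higher and 38.5% in either direction. The test was limma on log2(FPKM + 1), and a gene counted as changed if its p, adjusted by Benjamini-Hochberg across the genes tested, was under 0.05. On this scale the change of genes with low levels is understated. The median log2 fold change of the 10 genes was −0.74 in si1 against NC, 0.05 in si2 against NC and −0.84 in si1 against si2, beside −0.01, 0.00 and −0.01 over all genes tested. Without NC replicate 1, 5 of the 10 genes were called in si1 against NC. In si2 against NC, 3 were called without si2 replicate 1, NC replicate 1 or NC replicate 2. The comparisons of si1 and of si2 with NC share the 2 NC libraries, so they are not independent of each other.

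**Figure D1:**
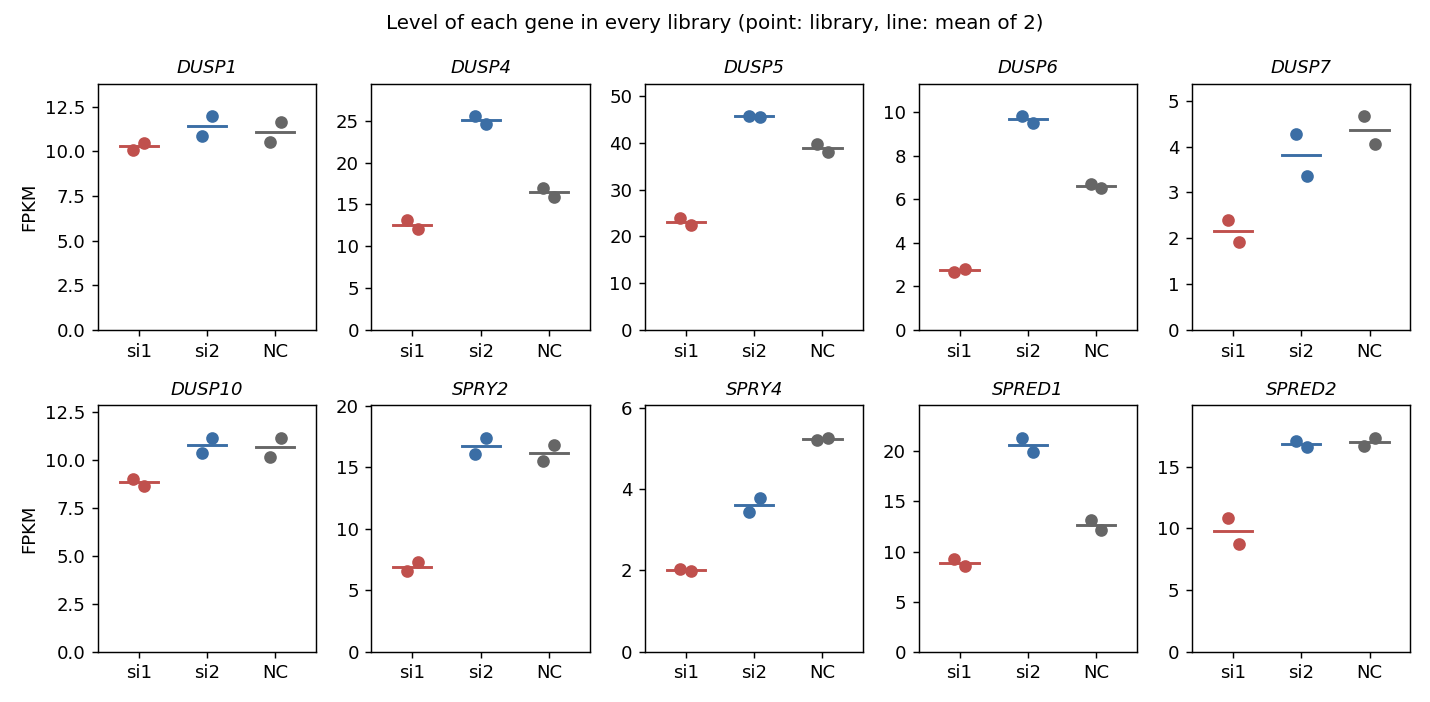
FPKM of each of the 10 genes in the 6 libraries, with 1 panel per gene. Points are libraries and horizontal lines are group means, with si1, si2 and NC from left to right. The si1 points lie lowest in each panel, and the si2 points of DUSP4, DUSP5, DUSP6 and SPRED1 lie above those of NC. How many of all genes tested share such an order was not counted.

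By level, DUSP5 came first in each group and DUSP7 and SPRY4 took the last places. In NC the mean of DUSP5 ranked 1004 of the 12319 genes tested and that of DUSP7 ranked 7706. The order in NC was DUSP5, SPRED2, DUSP4, SPRY2, SPRED1, DUSP1, DUSP10, DUSP6, SPRY4 and DUSP7. Neighbours whose NC libraries overlapped were SPRED2 with DUSP4, DUSP4 with SPRY2, and DUSP1 with DUSP10. In si1, DUSP1 took place 3, its libraries overlapping those of SPRED2, the next gene, whereas in si2 it took place 6, overlapping DUSP10. The mean of the highest group was 3.54 times that of the lowest for DUSP6 and 1.11 times for DUSP1, the widest and the narrowest spread among the 10 genes.

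Among the nuclear, inducible phosphatases, DUSP1 (ENSG00000120129, chr5:172768090-172771195, hg38, minus strand) encodes a phosphatase that acts on p38, JNK and ERK and is made soon after many stimuli. It was at 10.1 and 10.5 FPKM in the si1 libraries, 10.9 and 12.0 FPKM in si2, and 10.5 and 11.6 FPKM in NC. The si1 libraries lay just under both others, and si2 overlapped NC. The log2 fold change was −0.10 in si1 against NC (95% interval −0.30 to 0.10, adjusted p = 0.446), 0.04 in si2 against NC (95% interval −0.16 to 0.24, adjusted p = 0.75) and −0.14 in si1 against si2 (95% interval −0.34 to 0.06, adjusted p = 0.23). DUSP1 was thus the member that did not pass the test in any of the 3 comparisons.

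DUSP4 (ENSG00000120875, chr8:29333064-29350668, hg38, minus strand) encodes a nuclear phosphatase of ERK and JNK. Its level was 13.1 and 12.0 FPKM in si1, 25.6 and 24.7 FPKM in si2, and 16.9 and 15.9 FPKM in NC, with no overlap between any groups. DUSP4 fell in si1 to 76.5% of the NC mean (log2 fold change −0.36, SE 0.0739, adjusted p = 0.0144) and rose in si2 to 152.8% of it (0.58, adjusted p = 0.00203). In si1 it was at 50.1% of the si2 mean (−0.95, adjusted p = 0.000191). It missed the threshold in si1 against NC without NC replicate 1 (−0.32, adjusted p = 0.109) and without NC replicate 2 (−0.40, adjusted p = 0.0584).

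DUSP5 (ENSG00000138166, chr10:110497838-110511544, hg38, plus strand), a nuclear phosphatase specific for ERK, was the most abundant of the 10 genes. It measured 23.9 and 22.4 FPKM in si1, 45.8 and 45.7 FPKM in si2, and 39.8 and 38.02 FPKM in NC, and the groups did not overlap. In si1 it fell to 59.3% of the NC mean (−0.73, SE 0.0638, adjusted p = 0.000574) and to 50.5% of the si2 mean (−0.96, adjusted p = 0.000111). In si2 it rose to 117.5% of the NC mean (0.23, adjusted p = 0.0359). That smaller rise did not pass the threshold when any 1 si2 or NC library was left out: adjusted p was 0.154 without si2 replicate 1, 0.137 without si2 replicate 2, 0.105 without NC replicate 1 and 0.201 without NC replicate 2.

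Of the cytoplasmic phosphatases of ERK, DUSP6 (ENSG00000139318, chr12:89347232-89353271, hg38, minus strand) encodes the phosphatase that binds ERK in the cytoplasm and whose transcript is a common marker of ERK output. It had 2.65 and 2.82 FPKM in si1, 9.84 and 9.53 FPKM in si2, and 6.69 and 6.54 FPKM in NC. The 3 groups stood well apart, with si1 lowest and si2 highest. DUSP6 fell in si1 to 41.4% of the NC mean (−1.03, SE 0.0764, adjusted p = 0.000348) and rose in si2 to 146.4% of it (0.49, SE 0.0764, adjusted p = 0.00459). Between the knockdown groups the difference was −1.52 (adjusted p = 4.37e-05), with si1 at 28.3% of the si2 mean. An annotated antisense gene, AC024909.2, shares 1875 exon bases with DUSP6 and was at 0 to 0.159 FPKM. Whether the authors counted by strand was not given in the sources used here, so reads of the pair may not be separable.

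DUSP7 (ENSG00000164086, chr3:52048919-52056550, hg38, minus strand) encodes a closely related cytoplasmic ERK phosphatase. Its values were 2.40 and 1.91 FPKM in si1, 4.27 and 3.35 FPKM in si2, and 4.67 and 4.05 FPKM in NC. The si1 libraries lay under all others, and si2 overlapped NC. DUSP7 fell in si1 to 49.5% of the NC mean (−0.77, SE 0.136, adjusted p = 0.00872) and to 56.7% of the si2 mean (−0.60, adjusted p = 0.0124). In si2 against NC the difference was −0.16 (95% interval −0.48 to 0.16, adjusted p = 0.413). The replicates of DUSP7 were spread more widely than those of DUSP6, and its calls were lost without NC replicate 1 in si1 against NC (adjusted p = 0.0689), and without si1 replicate 2 (adjusted p = 0.0593) or si2 replicate 1 (adjusted p = 0.0731) in si1 against si2.

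DUSP10 (ENSG00000143507, chr1:221701424-221742176, hg38, minus strand) encodes a phosphatase that acts on JNK and p38 rather than on ERK. It was at 9.004 and 8.62 FPKM in si1, 10.3 and 11.2 FPKM in si2, and 10.1 and 11.1 FPKM in NC, so that si1 lay lowest and si2 and NC overlapped. In si1 against NC the log2 fold change of −0.25 missed the threshold (95% interval −0.44 to −0.06, adjusted p = 0.0691), and in si2 against NC it was 0.01 (95% interval −0.18 to 0.20, adjusted p = 0.921). Against si2 it was lower in si1 by a narrow margin (−0.26, adjusted p = 0.0403). That call was lost on leaving out any 1 of the 6 libraries: adjusted p was 0.0664 without si1 replicate 1, 0.108 without si1 replicate 2, 0.0813 without si2 replicate 1, 0.189 without si2 replicate 2, 0.0604 without NC replicate 1 and 0.0606 without NC replicate 2.

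Both Sprouty genes were low in si1 and they differed in si2. SPRY2 (ENSG00000136158, chr13:80335976-80340951, hg38, minus strand) encodes an adaptor that is phosphorylated after receptor activation and restrains the step to RAS. It had 6.56 and 7.25 FPKM in si1, 16.1 and 17.4 FPKM in si2, and 15.5 and 16.8 FPKM in NC. The si1 libraries stood far under the rest, and si2 and NC overlapped. SPRY2 fell in si1 to 42.8% of the NC mean (−1.12, SE 0.0835, adjusted p = 0.000348) and to 41.3% of the si2 mean (−1.17, adjusted p = 0.000146). In si2 against NC the difference was 0.05 (95% interval −0.15 to 0.25, adjusted p = 0.694).

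SPRY4 (ENSG00000187678, chr5:142310427-142326455, hg38, minus strand), another inhibitor of the receptor-to-RAF step, fell in both knockdown groups. Its values were 2.04 and 1.97 FPKM in si1, 3.44 and 3.77 FPKM in si2, and 5.195 and 5.26 FPKM in NC. The groups did not overlap, and NC was highest, which was not so for DUSP4, DUSP5, DUSP6 or SPRED1. SPRY4 fell in si1 to 38.4% of the NC mean (−1.05, SE 0.0903, adjusted p = 0.000525), and in si2 to 68.9% of it (−0.44, SE 0.0903, adjusted p = 0.0129). It was lower in si1 than in si2 (−0.61, adjusted p = 0.00225). The call in si2 was lost without si2 replicate 1 (adjusted p = 0.0791), NC replicate 1 (adjusted p = 0.0719) or NC replicate 2 (adjusted p = 0.0832).

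The SPRED proteins bring the RAS inactivator neurofibromin to the membrane. SPRED1 (ENSG00000166068, chr15:38252326-38357249, hg38, plus strand) stood at 9.25 and 8.53 FPKM in si1, 21.4 and 19.9 FPKM in si2, and 13.2 and 12.2 FPKM in NC, with no overlap. It fell in si1 to 70.1% of the NC mean (−0.47, SE 0.0799, adjusted p = 0.00736) and rose in si2 to 162.9% of it (0.66, SE 0.0799, adjusted p = 0.00169), the highest of the 10 fold changes in si2. In si1 it was at 43.0% of the si2 mean (−1.13, adjusted p = 0.000135). Without NC replicate 1, the call in si1 against NC was lost (−0.41, adjusted p = 0.0666).

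SPRED2 (ENSG00000198369, chr2:65310851-65432637, hg38, minus strand), which encodes a protein of the same domain layout, was at 10.9 and 8.76 FPKM in si1, 17.1 and 16.6 FPKM in si2, and 16.7 and 17.4 FPKM in NC. The si1 libraries lay apart from the others, and si2 and NC overlapped. It fell in si1 to 57.5% of the NC mean (−0.75, SE 0.0996, adjusted p = 0.00273) and to 58.2% of the si2 mean (−0.73, adjusted p = 0.00169). In si2 against NC it was close to 0 (−0.02, 95% interval −0.25 to 0.22, adjusted p = 0.924).

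**Figure D2:**
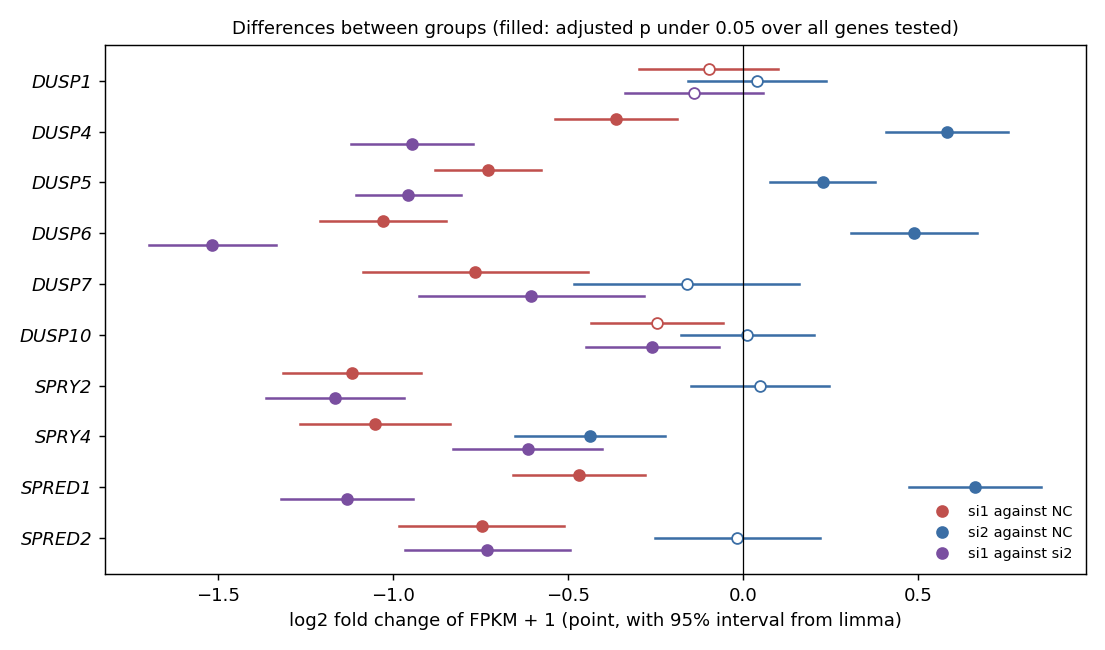
Log2 fold changes of the 10 genes on the log2(FPKM + 1) scale in si1 against NC, si2 against NC and si1 against si2. Bars are 95% intervals from limma, and filled points passed an adjusted p under 0.05. In si1 against NC the values run from −1.12 for SPRY2 to −0.10 for DUSP1, and in si2 against NC from −0.44 for SPRY4 to 0.66 for SPRED1.

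Ratios of related genes within a library described how paired members changed relative to each other. SPRED1 over SPRED2 was 0.853 and 0.974 in si1, 1.25 and 1.20 in si2, and 0.791 and 0.700 in NC. SPRED1 was thus the more abundant of the pair in si2 and the less abundant in si1 and NC. SPRY2 over SPRY4 was 3.22 and 3.68 in si1, 4.67 and 4.62 in si2, and 2.98 and 3.19 in NC, highest in si2. DUSP4 over DUSP5 was 0.550 and 0.538 in si1, 0.559 and 0.540 in si2, and 0.425 and 0.419 in NC, so this ratio was alike in both knockdown groups and lower in NC. DUSP6 over DUSP7 was 1.10 and 1.47 in si1, 2.30 and 2.84 in si2, and 1.43 and 1.61 in NC, and here si1 and NC overlapped.

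Summed by class, with the family members outside the 10 genes included, si1 had the lowest mean in each of the 5 classes, and si2 the highest in each but the JNK and p38 phosphatases. The cytoplasmic ERK phosphatases DUSP6, DUSP7 and DUSP9 summed to 5.16 ± 0.144 FPKM in si1, 13.6 ± 0.889 FPKM in si2 and 11.8 ± 0.723 FPKM in NC (SD, n = 2 each). The Sprouty genes SPRY1 to SPRY4 summed to 14.2 ± 0.221 FPKM in si1, 28.7 ± 1.72 FPKM in si2 and 26.1 ± 0.783 FPKM in NC. These sums in si1 were 43.7% and 54.3% of those in NC. The SPRED genes in si1 were at 62.8% of NC and in si2 at 124.1%. The nuclear phosphatases DUSP1, DUSP2, DUSP4 and DUSP5 were at 78.2% of NC in si1 and 117.0% in si2. The JNK and p38 phosphatases DUSP8, DUSP10 and DUSP16 were at 84.5% of NC in si1 and 98.2% in si2, the narrowest range of the 5 classes. These sums carry no test.

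**Figure D3:**
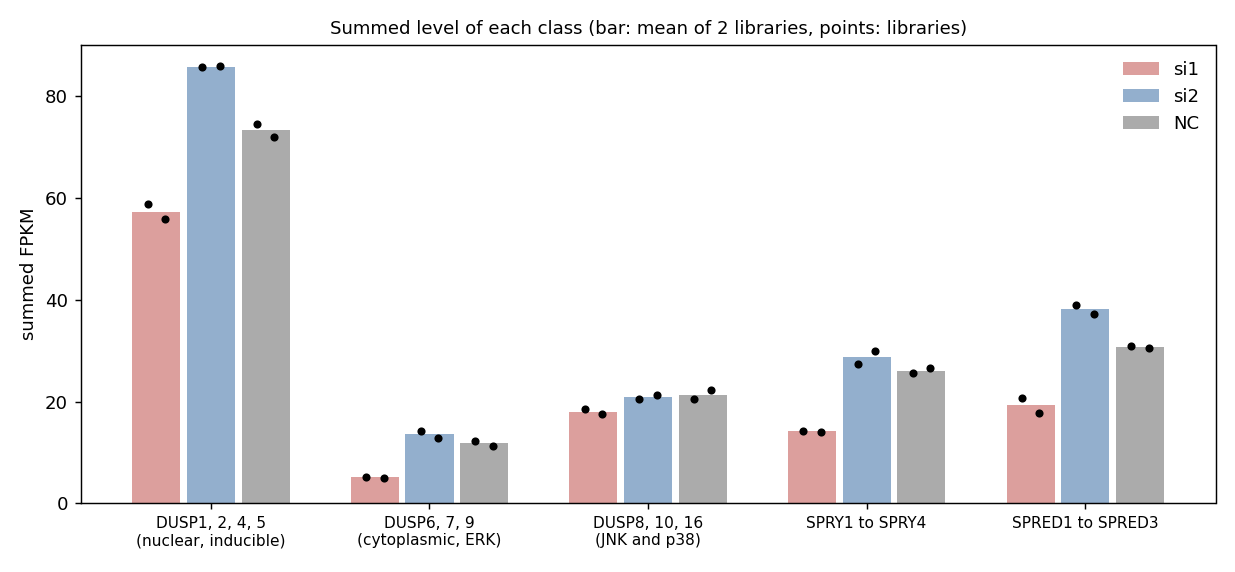
Summed FPKM of the 5 classes of MAPK phosphatase, Sprouty and SPRED genes in each library, with si1, si2 and NC from left to right in each class. Points are libraries and bars are group means starting at 0. The cytoplasmic ERK phosphatases sum to 5.16 FPKM in si1, against 13.6 FPKM in si2 and 11.8 FPKM in NC.

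The promoter sequences of 4 genes are shown because these genes differ in how they moved against NC: DUSP6 fell in si1 and rose in si2, SPRY2 fell in si1 and did not pass the test in si2, SPRY4 fell in both, and DUSP1 passed in neither. RefSeq promoters (GRCh38.p14, 250 bases before to 50 after a start) were found for 8 of the 10 genes, with 12 starts in all, and DUSP4 and DUSP5 had no entry. Each is given 5′ to 3′ on the gene's strand, and capitals mark matches to the motifs searched. They lie at chr12:89352452-89352751 (DUSP6), chr13:80341077-80341376 (SPRY2, the most upstream of its starts), chr5:142324198-142324497 (SPRY4) and chr5:172771146-172771445 (DUSP1), all on the minus strand. The DUSP6 and SPRY4 windows lie inside the gene spans printed above, which begin at 89353271 and 142326455 on that strand. The SPRY2 window lies upstream of its span. For these genes the RefSeq start is thus not the start of the gene as annotated in the deposited values.
DUSP6: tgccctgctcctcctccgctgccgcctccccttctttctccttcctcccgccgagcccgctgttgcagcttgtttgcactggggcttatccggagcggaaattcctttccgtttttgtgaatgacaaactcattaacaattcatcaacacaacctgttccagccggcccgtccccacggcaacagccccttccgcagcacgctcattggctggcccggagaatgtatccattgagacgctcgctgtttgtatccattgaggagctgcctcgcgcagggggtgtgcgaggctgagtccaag
SPRY2: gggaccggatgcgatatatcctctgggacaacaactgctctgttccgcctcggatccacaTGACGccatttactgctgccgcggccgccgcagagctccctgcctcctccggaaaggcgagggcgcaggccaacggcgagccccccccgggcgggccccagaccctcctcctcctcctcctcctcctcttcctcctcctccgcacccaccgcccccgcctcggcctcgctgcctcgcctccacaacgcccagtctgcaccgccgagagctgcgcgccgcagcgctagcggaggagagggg
SPRY4: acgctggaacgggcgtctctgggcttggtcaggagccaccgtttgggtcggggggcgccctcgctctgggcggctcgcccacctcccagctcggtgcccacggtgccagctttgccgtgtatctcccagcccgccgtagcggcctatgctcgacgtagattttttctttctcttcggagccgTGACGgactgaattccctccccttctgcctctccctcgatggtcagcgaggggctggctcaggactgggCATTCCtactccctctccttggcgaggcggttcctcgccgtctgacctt
DUSP1: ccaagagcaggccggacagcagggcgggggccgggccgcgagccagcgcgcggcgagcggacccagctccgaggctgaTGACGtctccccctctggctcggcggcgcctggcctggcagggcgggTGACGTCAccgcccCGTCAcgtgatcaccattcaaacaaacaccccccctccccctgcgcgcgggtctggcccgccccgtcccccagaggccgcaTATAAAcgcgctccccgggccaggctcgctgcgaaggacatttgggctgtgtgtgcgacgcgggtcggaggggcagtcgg

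The motifs, searched on both strands, were the ETS motif CCGGAAGT, the cyclic AMP response element TGACGTCA, its core TGACG, which the longer form contains, the AP-1 motif TGANTCA, the TEAD motif GGAATG and the TATA box TATAAA. DUSP1 held the full TGACGTCA, at −125 from the start, with 3 further matches of TGACG or its reverse complement that begin at −172, −122 and −111, the match at −122 overlapping the full element, and a TATAAA at −30. TGACGTCA is found in 1.85% and TATAAA in 11.5% of the 35116 RefSeq promoters of this length. SPRY2 had a TGACG at −190. SPRY4 had a TGACG at −68 and a reverse complement of GGAATG beginning at 2. TGACG occurs in 24.6% of all promoters and GGAATG in 14.0%. Among the promoters not shown, SPRED2 had its matches in separate windows. The window at chr2:65366729-65367028 held TATAAA and TGANTCA, which 7.71% of all promoters hold. The window at chr2:65432550-65432849 held TGACG on the opposite strand. DUSP10 had TGACG. CCGGAAGT, found in 4.14% of all promoters, was in 0 of the 12 windows. These matches describe the letters in the windows and nothing more.

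Other members of the same families did not all follow. DUSP2, a nuclear ERK phosphatase best known from lymphocytes, moved against DUSP4 and DUSP5 in both comparisons with NC. It was at 11.7 and 10.95 FPKM in si1, 3.41 and 3.49 FPKM in si2, and 7.22 and 6.43 FPKM in NC, rising in si1 (0.66, adjusted p = 0.00236) and falling in si2 (−0.81, adjusted p = 0.00103). DUSP8, a phosphatase of JNK and p38, was at 2.50 and 2.13 FPKM in si1, 1.63 and 1.16 FPKM in si2, and 3.18 and 3.48 FPKM in NC. It fell in si2 (−0.86, adjusted p = 0.00503), and in si1 its −0.39 missed the threshold (adjusted p = 0.0893). DUSP16, likewise a phosphatase of JNK and p38, did not pass in si1 (−0.08, adjusted p = 0.469) or in si2 (0.23, adjusted p = 0.0586). SPRY1 rose in si2 (0.79, adjusted p = 0.00167), with 4.69 and 4.10 FPKM in si1, 7.30 and 8.15 FPKM in si2, and 4.12 and 3.98 FPKM in NC. It did not pass in si1 against NC (0.09, adjusted p = 0.525). DUSP9, SPRY3 and SPRED3 stayed under the filter of a mean of 1 FPKM and were not tested.

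Transcripts outside the 10 genes that are known to depend on ERK were mostly lower in si1. Of 28 such genes, 25 were tested. In si1 against NC, 21 fell and 1 rose, with a median log2 fold change of −0.85. In si2 against NC, 11 rose and 8 fell, with a median of 0.13. In si1 against si2, 21 were lower in si1, with a median of −0.91. These are 84.0% of the tested genes of the list, beside 19.9% of all genes lower and 38.5% in either direction. The list was drawn up with earlier results of these data known, and of its tested genes 84.0% were lower in si1 against NC, beside 12.9% of all genes, while in si2 against NC 44.0% were higher and 32.0% lower, beside 13.6% and 15.4%. Leaving out 1 library at a time gave 18 to 22 fallen genes in si1, and in si2 7 to 11 risen, 7 without si2 replicate 1 or NC replicate 1, and 2 to 10 fallen, the 2 fallen without NC replicate 1 or NC replicate 2, and 3 without either si2 library. The 1 risen in si1 became 0 without NC replicate 1 or NC replicate 2.

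SERPINB2, a protease inhibitor induced through ERK, had 5.01 and 5.70 FPKM in si1, 26.2 and 24.6 FPKM in si2, and 33.9 and 34.0 FPKM in NC (si1 against NC −2.46, adjusted p = 3.22e-05). ETV5, a transcription factor of the ETS family, had 4.66 and 5.78 FPKM in si1, 15.8 and 16.1 FPKM in si2, and 19.3 and 18.7 FPKM in NC (−1.69, adjusted p = 0.000131). FOSL1, a subunit of AP-1, had 46.5 and 42.7 FPKM in si1, 81.6 and 88.3 FPKM in si2, and 124.0 and 132.3 FPKM in NC (−1.50, adjusted p = 8.73e-05). All 3 were lowest in si1 and highest in NC. SERPINB2 (−0.41, adjusted p = 0.0101) and FOSL1 (−0.59, adjusted p = 0.00176) also fell in si2 against NC. ETV5 did not pass there (−0.24, adjusted p = 0.111). With 1 library left out, the si2 value of SERPINB2 ran from −0.45 to −0.36. Its si2 call was lost without si2 replicate 2 (−0.36), NC replicate 1 (−0.41) or NC replicate 2 (−0.40).

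The ERK-dependent genes with the largest changes in si2 were ligands of the EGF receptor and a protease inhibitor. AREG, encoding amphiregulin, had 19.7 and 22.3 FPKM in si1, 81.0 and 78.4 FPKM in si2, and 33.3 and 29.1 FPKM in NC (si2 against NC 1.33, adjusted p = 0.000225). EREG, encoding epiregulin, had 36.6 and 40.0 FPKM in si1, 238.0 and 230.7 FPKM in si2, and 97.5 and 94.8 FPKM in NC (1.28, adjusted p = 8.80e-05). TFPI2, an inhibitor of serine proteases, had 8.53 and 8.70 FPKM in si1, 27.97 and 27.4 FPKM in si2, and 14.2 and 15.5 FPKM in NC (0.86, adjusted p = 0.000471). These 3 genes ranked as DUSP4, DUSP6 and SPRED1 did, lowest in si1 and highest in si2, and all 3 also fell in si1 against NC.

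Components that relay the signal were read against the shares of all genes. Of 29 genes of the RAS, RAF, MEK and ERK cascade, 29 were tested, and 2 rose and 8 fell in si1 against NC (median 0.01), while 5 rose and 3 fell in si2 (median 0.03). In si1 these are 6.9% higher and 27.6% lower, beside 9.47% and 12.9% over all genes. In si2 they are 17.2% higher and 10.3% lower, near the 13.6% and 15.4% over all genes. The 8 fallen in si1 became 3 without NC replicate 1 or NC replicate 2, and 5 without si1 replicate 2. The 2 risen in si1 became 0 without NC replicate 1 and 1 without any other library. The 5 risen in si2 became 2 without si2 replicate 2 or NC replicate 2, and 3 without si2 replicate 1 or NC replicate 1. NRAS, a RAS GTPase, had 19.7 and 22.4 FPKM in si1, 61.4 and 61.3 FPKM in si2, and 56.8 and 54.3 FPKM in NC, and fell in si1 (−1.36, adjusted p = 0.000131). GRB2, the adaptor that couples receptors to RAS activation, fell in si1 (−0.91, adjusted p = 0.000348), as did the kinase ARAF (−0.75, adjusted p = 0.00355). In si2 the ETS factor ELK1, a target of ERK, fell (−1.05, adjusted p = 0.000328), and its relative ELK4 (0.66, adjusted p = 0.00215) and the phosphatase PTPN11, which promotes RAS activation (0.50, adjusted p = 0.00195), rose. ELK1 also fell in si1 (−0.29, adjusted p = 0.0404), a call lost without the filter on low values (adjusted p = 0.0933). It was lost too with no variance trend in the fit (adjusted p = 0.0543) and with only the 2 groups compared (0.0678). With the replicate number as a block it was also lost (0.0631). Leaving out any 1 library lost this call as well, with values from −0.34 to −0.24.

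Of 27 genes of the JNK, p38 and ERK5 cascades, 25 were tested. In si1 against NC 1 rose and 5 fell (median 0.03), and in si2 against NC 3 rose and 6 fell (median 0.11). In si1 these are 4.0% higher and 20% lower, beside 9.47% and 12.9% over all genes. In si2 they are 12.0% higher, near the 13.6% over all genes, and 24% lower, beside 15.4%. The 1 risen in si1 became 0 without NC replicate 2. The 5 fallen in si1 became 3 without si1 replicate 2, NC replicate 1 or NC replicate 2, and the 6 fallen in si2 became 2 without si2 replicate 1, NC replicate 1 or NC replicate 2. The kinase MAPKAPK2, which acts under p38, fell in si1 (−0.96, adjusted p = 0.000365), as did the transcription factor JUN (−0.79, adjusted p = 0.000746) and the p38 activator MAP2K3 (−0.65, adjusted p = 0.00137). JUN (−0.47, adjusted p = 0.00448) and MAPKAPK2 (−0.25, adjusted p = 0.0413) fell in si2 as well. MAPKAPK2 was not called in si2 without the filter on low values (adjusted p = 0.0992) or with no variance trend in the fit (0.0756). With the replicate number as a block it was not called either (0.0632). Its si2 call was also lost without si2 replicate 1 (−0.17), NC replicate 1 (−0.25) or NC replicate 2 (−0.25). The kinase MAP3K2 rose in si1 (0.49, adjusted p = 0.00585) and in si2 (0.65, adjusted p = 0.00178), and MAP3K5 rose in si2 (0.63, adjusted p = 0.00241). The si1 call of MAP3K2 was lost without NC replicate 2 (0.44). MAP3K3 fell in si1 (−0.39, adjusted p = 0.0407), a call lost without the filter on low values (adjusted p = 0.15). It was lost too with no variance trend (adjusted p = 0.0659) and with the replicate number as a block (0.0635). Leaving out si1 replicate 2 (−0.30), NC replicate 1 (−0.42) or NC replicate 2 (−0.36) lost it as well. In si2 MAP3K3 also fell (−0.54, adjusted p = 0.0113). The si2 call for MAP3K3 was lost without the filter on low values (adjusted p = 0.0632). It was also lost without si2 replicate 1 (−0.41), NC replicate 1 (−0.56) or NC replicate 2 (−0.51).

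A list drawn up as feedback inhibitors other than the 10 genes was also counted. It holds general regulators too, such as PPP2CA, so its counts are not those of feedback inhibitors alone. Of its 22 genes, 21 were tested, with 5 risen and 4 fallen in si1 (median 0.08) and 7 risen and 4 fallen in si2 (median −0.02). In si1 these are 23.8% higher and 19.0% lower, beside 9.47% and 12.9% over all genes. In si2 they are 33.3% higher and 19.0% lower, beside 13.6% and 15.4%, so that the share lower was near that of all genes. Without NC replicate 1 or NC replicate 2, 1 rose and 1 fell in si1, and without si1 replicate 1 or si1 replicate 2, 2 fell. In si2, 2 rose without si2 replicate 1, NC replicate 1 or NC replicate 2. The number fallen in si2 was 2 without si2 replicate 1 or NC replicate 2, and 1 without NC replicate 1. RGS4, which shortens signalling by G proteins, fell in si1 (−1.08, adjusted p = 0.00101), with 1.39 and 1.72 FPKM in si1, 3.56 and 3.15 FPKM in si2, and 4.38 and 4.44 FPKM in NC. ERRFI1, which binds and blocks the EGF receptor, rose in si2 (0.70, adjusted p = 0.000346), with 106.5 and 109.4 FPKM in si1, 151.7 and 147.6 FPKM in si2, and 93.7 and 90.0 FPKM in NC. ERRFI1 also rose in si1 (0.23, adjusted p = 0.022), a call lost without the filter on low values (adjusted p = 0.0591). It was lost too with no variance trend in the fit (adjusted p = 0.0747) and with only the 2 groups compared (0.0541). Leaving out either si2 library (0.23), NC replicate 1 (0.26) or NC replicate 2 (0.20) lost it as well. PPP2CA, the catalytic subunit of a general phosphatase, fell in si2 (−1.08, adjusted p = 0.000655).

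RGS2, another regulator of G proteins, rose in si1 (0.83, adjusted p = 0.00918) and in si2 (0.60, adjusted p = 0.0242). In si1 it missed the threshold without NC replicate 1 (adjusted p = 0.0592) or NC replicate 2 (0.0531), and in si2 without si2 replicate 1 (0.125), NC replicate 1 (0.102) or NC replicate 2 (0.102). SOCS2, an inhibitor of cytokine signalling, fell in si1 (−0.60, adjusted p = 0.02). Its call was lost without si1 replicate 1 (0.0562), si1 replicate 2 (0.0699), NC replicate 1 (0.0538) or NC replicate 2 (0.126).

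**Figure D4:**
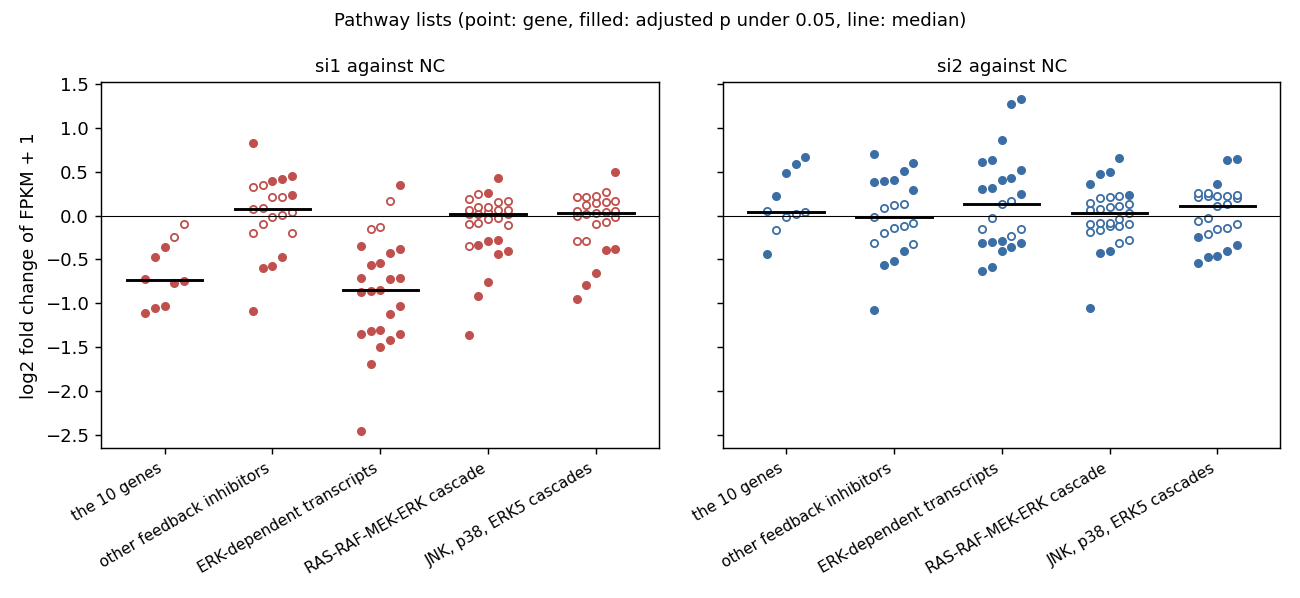
Log2 fold changes of the tested genes of each list in si1 against NC and si2 against NC, on the log2(FPKM + 1) scale. Each point is a gene, filled where it passed an adjusted p under 0.05, and the line is the list's median. The ERK-dependent list has a median of −0.85 in si1 and 0.13 in si2, and the cascade lists have medians between 0.01 and 0.11.

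The genes whose log2 levels were most like those of SPRY2 over the 6 libraries were NCAPH (Pearson r = 0.999), LPXN (0.998) and TMSB10 (0.997). For SPRY4 they were FOSL1 (0.998), AXL (0.998) and PVR (0.997). AXL, a receptor tyrosine kinase, had 36.9 and 34.8 FPKM in si1, 72.7 and 76.1 FPKM in si2, and 134.5 and 135.0 FPKM in NC. With 3 groups of 2 libraries such a likeness mainly describes the order of the group means, and 414 genes reached a Pearson r of 0.95 with SPRY2 and 239 with SPRY4, so no p is given.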

How the data were processed

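The deposited values are FPKM per gene in 6 libraries, computed by the authors. The genome build, per the submitters' processing notes, was hg38, and how reads were aligned, counted and annotated, and whether by strand, is not given in the sources used here. Start and end of 58735 of 58735 genes equal those of GENCODE release 29, whose positions are printed. Each library's values, once multiplied by length, fell on whole steps for 100% of genes (tolerance 0.001 reads), which gave the reads behind them. Replicates differed by more than counting noise. The chi-square per degree of freedom between the 2 libraries of a group was 9.02 in si1, 3.57 in si2 and 3.65 in NC. The fit pools the spread over the groups, so its intervals for si1 may be too narrow.

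Genes whose mean reached 1 FPKM, 12319 in all, were tested with limma 3.58.1 (R 4.3.3) on log2(FPKM + 1), using all 6 libraries with 1 coefficient per group, 3 residual and 4.03 prior degrees of freedom, and a variance trend. Tests were two-sided, with Benjamini-Hochberg adjustment over all genes tested and a threshold of 0.05. The fit was also run on simulated reads with genes changed in si1 only and the same replicate spread in all groups. The real replicates spread unequally between groups, so that run does not show how the fit performs on these libraries. FPKM means carry an SD over 2 libraries, and log2 fold changes the standard error (SE) or 95% interval of limma. Intervals for a count of 0 rest on 3 reads and cover counting error only.

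The 10 genes and the gene lists were chosen with earlier results of these data known. Besides the 10 genes, the text names the called members of each list with the largest absolute log2 fold change against NC, up to 3 per list and comparison, and for SPRY2 and SPRY4 the 3 genes with the highest Pearson r over the 6 libraries. The alternatives were other scalings, pseudocounts, filters and fits, each library left out in turn, and limma-voom on the recovered reads, which was added after seeing the data.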

Additional observations from a re-analysis of the deposited data

Results flagged for a closer look

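The effects of the knockdown groups si1 and si2 differed by their own test, the contrast of si1 with si2 in limma, for 9 of the 10 genes. All 9 were lower in si1. The log2 difference of si1 from si2 was −1.52 for DUSP6, −1.17 for SPRY2, −1.13 for SPRED1, −0.96 for DUSP5, −0.95 for DUSP4, −0.73 for SPRED2, −0.61 for SPRY4, −0.60 for DUSP7 and −0.26 for DUSP10. Over all genes tested 38.5% differed in this contrast, 19.9% lower and 18.6% higher in si1. The smallest of these, for DUSP10, had an adjusted p of 0.0403 and passed under 4 of 15 alternatives.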

How the results depend on the processing

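Over the 10 genes, 3 comparisons and the alternatives, 444 values were computed: 406 kept direction and side of the threshold, 30 lost the call and 8 changed sign. The 8 were uncalled values in si2 against NC with 1 library left out, over which DUSP1 ran from −0.03 (−0.0252 and −0.0245) to 0.11, DUSP10 from −0.05 (−0.0485 and −0.0364) to 0.0747, SPRY2 from −0.01 (−0.0051 and −0.0037) to 0.10, and SPRED2 from −0.043 to 0.01 (0.0051 and 0.0115). Without a filter on low values, called genes numbered 1414 in si1 against NC, 1785 in si2 against NC and 3130 in si1 against si2, beside 2758, 3578 and 4743, and 3 of the 10 genes were called in si2 against NC; more genes were tested (29572). With 1 library left out, called genes ran from 1114 to 2443 in si1 against NC, 1490 to 4047 in si2 against NC and 2973 to 4367 in si1 against si2, and of the 10 genes 5 to 8, 3 to 5 and 7 to 8 were called. The lowest were without NC replicate 1 (1114), NC replicate 2 (1490) and si2 replicate 1 (2973). A group left with 1 library was assumed to vary like the others. DUSP6, SPRY2, SPRY4, DUSP5 and SPRED2 kept their calls in si1 against NC, and DUSP4, DUSP6 and SPRED1 theirs in si2 against NC, under every alternative run. DUSP7 in si1 against NC (adjusted p = 0.0622) and SPRY4 in si2 against NC (adjusted p = 0.0504) were not called without the filter. limma-voom called 8, 5 and 8 of the 10 genes. The planned edgeR and DESeq2 fits were not run, since the files hold FPKM. A filter at a mean of 5 FPKM gave no value for DUSP7 and SPRY4.

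Replicate numbers were shared between groups, and deviations of same-numbered libraries correlated at −0.058, −0.052 and 0.05 over the genes tested. The labels do not say what the numbers mean. Such correlations cannot tell whether same-numbered libraries shared a culture or batch that moved some genes. With the replicate number as a block, 2335, 3121 and 4314 genes and 8, 4 and 8 of the 10 genes were called. DUSP5 in si2 against NC (adjusted p = 0.0584) and DUSP10 in si1 against si2 (adjusted p = 0.0604) were not called with the block, and the calls of the other 8 genes did not change.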

Other observations

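A few ERK-dependent genes outside the rule for naming were chosen after their values were seen. CCND1, encoding cyclin D1, had 115.3 and 102.6 FPKM in si1, 249.9 and 250.9 FPKM in si2, and 275.5 and 282.0 FPKM in NC. It fell in si1 against NC (−1.35, adjusted p = 8.73e-05), and in si2 its −0.15 missed the threshold (adjusted p = 0.119); it passed with only the 2 groups compared (adjusted p = 0.0195), without si1 replicate 1 (0.0212), without si1 replicate 2 (0.0208) and with limma-voom (0.0383). PLAUR, the urokinase receptor, had 5.37 and 5.42 FPKM in si1, 16.7 and 16.6 FPKM in si2, and 12.2 and 12.0 FPKM in NC. It fell in si1 (−1.03, adjusted p = 0.00019) and rose in si2 (0.43, adjusted p = 0.00435).

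HBEGF, a ligand of the EGF receptor like AREG and EREG, fell in both groups, with 1.89 and 2.17 FPKM in si1, 3.99 and 4.47 FPKM in si2, and 7.30 and 6.91 FPKM in NC (−1.42, adjusted p = 0.00025 in si1, and −0.63, adjusted p = 0.00431 in si2). Its groups stood in the order of SPRY4, with NC highest, whereas AREG and EREG were highest in si2. TP63, a squamous transcription factor, was the tested gene of the squamous marker list. It had 5.37 and 5.34 FPKM in si1, 12.9 and 10.9 FPKM in si2, and 5.97 and 6.25 FPKM in NC, and rose in si2 (0.85, adjusted p = 0.00119).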
